A study of Mus musculus with 2 samples.

Results

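Enpep and 5 other genes of peptidases that sit in the cell membrane were followed in mouse fetal thymic stromal cells grown in 2 ways. The genes are Enpep, Anpep, Dpp4, Mme, Ace and Ece1. They were chosen by name, as the genes that a non-control probe of the array stands for by its gene symbol or accession. They are 6 of 19505 genes named on the array and have 12 of its 41174 probes. In reaggregation thymus organ culture (RTOC), dispersed stromal cells are placed together on a membrane and form a tissue-like mass. In 2D culture, stromal cells dispersed in the same way spread on a dish.

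Each of 2 whole mouse genome arrays held both cultures, with the RNA of 2D culture labelled with Cy3 and the RNA of RTOC labelled with Cy5. The cells came from fetal thymus lobes of C57BL/6 embryos, E14.5 for one array and E15.5 for the other, and the strain is labelled on the 2D culture channel only. All 4 channels shared a treatment of the lobes with 1.35 mM deoxyguanosine, which depletes haematopoietic cells, within an organ culture of 8 days (E14.5) or 9 days (E15.5), and all cells were harvested 72 h after plating. No sorting step is named for these cells and the number of embryos pooled is not given in the sources used here, so every value is a level in a mixture of stromal cells. Stage, days of organ culture and array changed together, and the dyes were not swapped, so these cannot be told apart from one another or, for the dye, from the culture.

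Membrane peptidases of this kind are anchored with the catalytic part outside the cell, where they trim or cut peptides that pass by. Enpep encodes aminopeptidase A, which removes acidic residues from the amino end of peptides such as angiotensin II, and its product is the Ly51 antigen by which cortical thymic epithelial cells are recognised in the mouse. It is also known on early B lineage cells and on pericytes. Anpep encodes aminopeptidase N (CD13), Dpp4 the dipeptidyl peptidase CD26, and Mme the endopeptidase neprilysin (CD10). Ace makes angiotensin II from angiotensin I, and Ece1 makes endothelins from their precursors.

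The probes are shown because 4 of the 6 genes have more than 1 probe and the probes did not all respond alike. Each line gives bases 1 to 30 of a probe of 60 bases, as the files print it, for the probe that stands for the gene, which is the one with the highest mean signal.
Enpep: gctaagtgttcttcatgggaaagtctttac
Anpep: cctaccccccacgagatccagaaccaaaga
Dpp4: caaagcactgacttctaagtaaaaccacag
Mme: tttgaacactcttagagcttaaactagagt
Ace: atgggggacatggtgtttgagtggaacata
Ece1: ttttttgtattattgtgttttgtgctactg
A second probe of Mme shared no run of more than 6 bases with the first, so the pair read separate stretches.
Mme, second probe: tggccagactgattcgtcaggaacaaagtt
A second probe of Dpp4 shared a run of 20 bases with the first, printed in capitals below as bases 1 to 20 of the first probe and bases 41 to 60 of the second. The values of these 2 probes are therefore not independent readings of the transcript.
Dpp4, first probe, bases 1 to 30: CAAAGCACTGACTTCTAAGTaaaaccacag
Dpp4, second probe, bases 31 to 60: atcatatatgCAAAGCACTGACTTCTAAGT

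In the assembly GRCm38.p6, Enpep lies on chromosome 3 from 129269177 to 129332749 and Mme on the same chromosome from 63295211 to 63383713. Anpep lies on chromosome 7 from 79821803 to 79848210, and Dpp4 on chromosome 2 from 62330073 to 62412315. Ace lies on chromosome 11 from 105967948 to 105989964, and Ece1 on chromosome 4 from 137862237 to 137965229. The files do not place the probes in exons or untranslated regions.

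RTOC held far more Enpep signal than 2D culture, less Mme and Ece1 signal, and no distinguishable difference in Anpep, Dpp4 or Ace. Of the 6 genes, 1 was higher in RTOC, 2 were lower and 3 were not called, at an adjusted p under 0.05 from limma with Benjamini-Hochberg adjustment over 23685 tested probes. Over those probes 28.9% were called, 15.3% higher and 13.6% lower in RTOC, so a call in itself was common. The counts in every list below are to be read against these shares. The median log2 ratio of RTOC over 2D culture was -0.01 over all tested probes and 0.28 over the 6 genes. Fewer cells of a type and less RNA per cell cannot be told apart in these mixed samples.

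**Figure D1:**
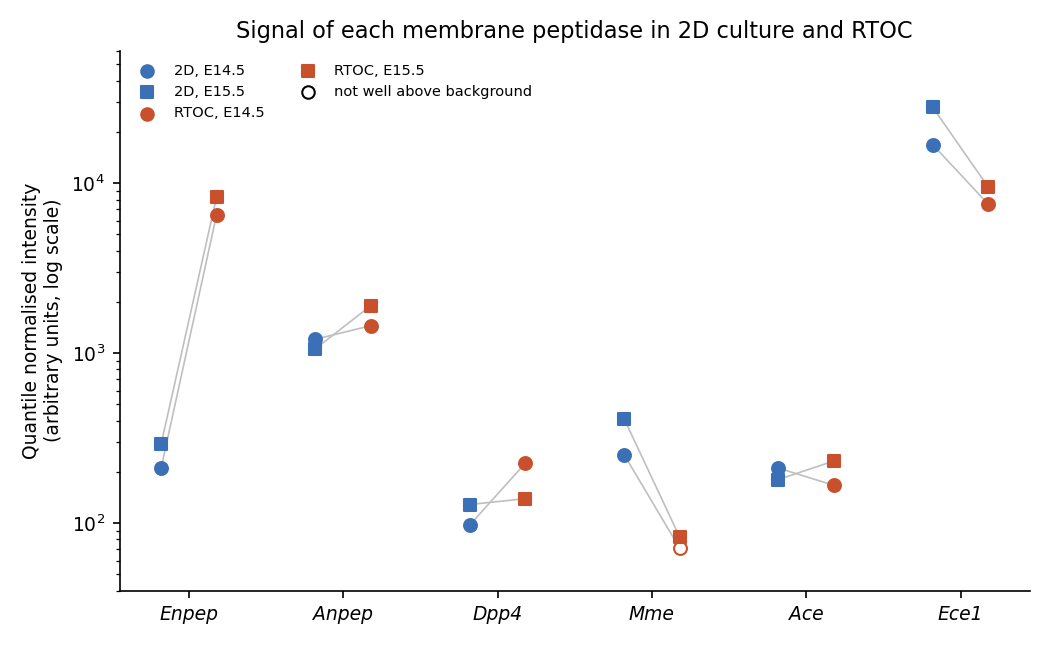
Quantile normalised intensity (arbitrary units, log scale) of the probe that stands for each gene, in 2D culture (blue) and RTOC (red) on the E14.5 (circles) and E15.5 (squares) arrays, with lines joining the channels of an array and an open symbol where the signal was not well above background. Enpep rose from 209.5 and 290.0 to 6521 and 8283, whereas Mme and Ece1 lay lower in RTOC on both arrays, and levels of different genes cannot be compared because probes differ.

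The Enpep probe read 209.5 in 2D culture against 6521 in RTOC at E14.5, in normalised intensity, and 290.0 against 8283 at E15.5. Both RTOC values lay far above both 2D values, and all 4 channels were well above background, meaning that Feature Extraction found the spot brighter than its background. RTOC exceeded 2D culture 31.1-fold at E14.5 and 28.6-fold at E15.5. The mean log2 ratio was 4.90 ± 0.09 (SD, n = 2 arrays), or 29.8-fold, with a standard error of 0.25 and an adjusted p of 0.00155 from limma. The 95% confidence interval of the log2 ratio was 4.27 to 5.53. Of the 23685 tested probes, 19 had a ratio at or above that of Enpep on both arrays. Among the 13964 genes whose brightest probe was well above background in all 4 channels, 9 other genes did so. With normexp background correction and loess in place of the processed signals, the rise was 11.8-fold (log2 ratio 3.56, adjusted p = 0.0104).

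**Figure D2:**
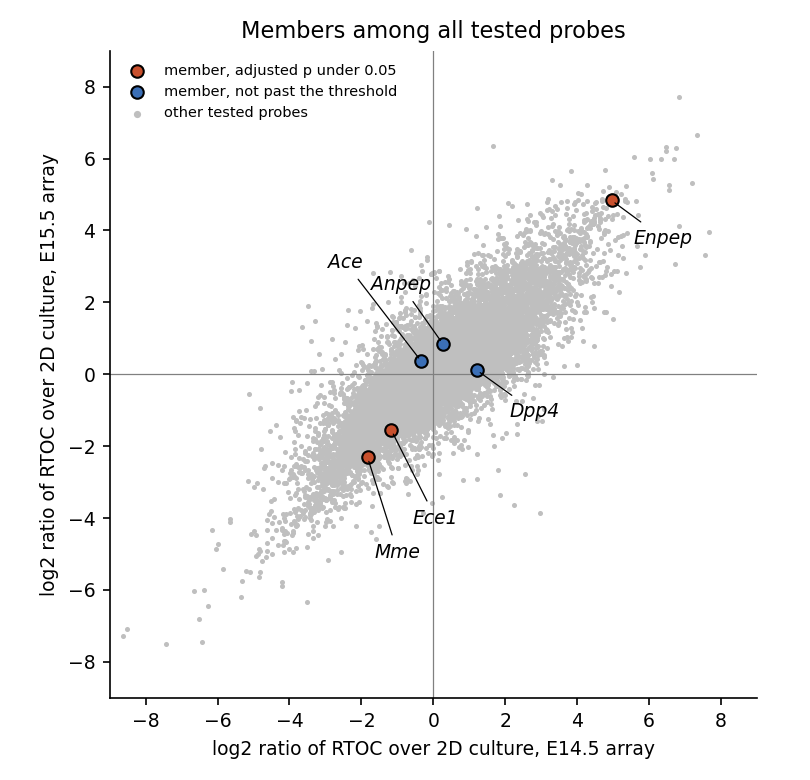
Log2 ratio of RTOC over 2D culture on the E14.5 array (x axis) against the E15.5 array (y axis) for all 23685 tested probes (grey) and the probe standing for each of the 6 genes (red, adjusted p under 0.05; blue, not past the threshold). Enpep, at 4.96 and 4.84, lies near the upper right end, Mme and Ece1 lie to the lower left, and Ace changes sign between the arrays.

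Markers of cortical thymic epithelium moved with Enpep. All 9 genes of that list were tested and all 9 were higher in RTOC, with a median log2 ratio of 4.29, and under 3 other scalings of the signals the count stayed at 9. From its microarrays of these cultures the paper had reported that Foxn1 and Tbata (there Spatial) behaved much as Psmb11 (there β5t) did. All of them are in the list, so their part of the count was known beforehand. Psmb11, the thymoproteasome subunit, had a mean log2 ratio of 3.91, Prss16, a cortical serine protease, of 5.29, and Ly75, an endocytic receptor of cortical epithelium, of 4.47. Summed over all 9 probes, the intensity was 37100 in 2D culture and 801300 in RTOC at E14.5, and 52820 and 719900 at E15.5. Probes differ in brightness, so such sums weigh the bright ones most, here Ccl25 (283700 in RTOC at E14.5) and Ctsl (288700), which are named for that reason. General epithelial markers were mostly not called. Of Epcam, Krt8, Krt18 and Cdh1, 0 were higher and 1 was lower (1 higher and 1 lower with normexp and median centring). The lower one was Cdh1, with a mean log2 ratio of -1.28. The summed intensity of these genes went from 274900 to 512800 at E14.5 and from 619700 to 528300 at E15.5. Krt8 and Krt18 made up most of these sums, whereas Epcam and Cdh1 had less signal in RTOC on both arrays. The mean log2 ratio was -0.71 for Epcam (adjusted p = 0.0953 from limma), an adhesion molecule of epithelium.

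Mural cells, in which Enpep is also known, were followed by 5 markers, of which 3 were higher in RTOC and 1 was lower (3 and 0 with normexp and median centring). Rgs5, a regulator of G protein signalling in pericytes, had a mean log2 ratio of 3.25 and Kcnj8, a potassium channel subunit, of 3.51, whereas Cspg4, the NG2 proteoglycan, had -2.68. The summed intensity of the 5 markers went from 17040 to 44360 at E14.5 and from 13120 to 43680 at E15.5. Kcnj8 made up most of the RTOC sums (33360 at E14.5 and 32330 at E15.5). Cspg4, which was lower in RTOC, made up most of the 2D sum at E14.5 (12770). Of 9 lymphoid markers, 5 were tested and 2 were higher, and their summed intensity went from 1348 to 5166 and from 1324 to 3213. Ptprc, the pan-leukocyte CD45, had a mean log2 ratio of 1.88, whereas Cd3e, a chain of the T cell receptor complex, had -0.08. Cd3g, another such chain, had a log2 ratio of 4.10 at E14.5, and its 2D signal at E15.5 was not well above background. With normexp and loess its mean was 1.19 and it was not called (adjusted p = 0.124), which left 1 lymphoid marker called. Cd8a and the B cell receptor chain Cd79a were not well above background in any channel. The part of these cell types in the Enpep ratio was not tested.

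The upstream sequence of Enpep is shown because the study concerned Foxn1, the transcription factor of thymic epithelium, and its 11-base consensus motif. RefSeq windows of 300 bases, 250 before and 50 after a transcript start, were searched on both strands for the motif, requiring its invariant core ACGC. The sequence below is the 250 bases before the annotated Enpep start, chr3:129332750-129332999 in GRCm38.p6, minus strand, with the nearest match to the motif in capitals.
Enpep, upstream: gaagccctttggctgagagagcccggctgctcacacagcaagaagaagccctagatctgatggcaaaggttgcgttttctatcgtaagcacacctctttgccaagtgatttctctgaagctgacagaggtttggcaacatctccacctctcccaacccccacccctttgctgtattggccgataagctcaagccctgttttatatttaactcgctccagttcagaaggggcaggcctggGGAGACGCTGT
The capitals mark bases 11 to 1 before the start, with 2 mismatches to the motif. Of 32851 windows, 7.41% held a match with at most 2 mismatches, 55.3% held the core and 7.61% held GACGCT, which also lies within the capitals and contains the core.

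All 6 genes had windows in that table, 12 in all. Ece1, which was lower in RTOC, also had a match with 2 mismatches, in 2 overlapping windows. The nearest match had 3 mismatches in 1 of the 3 Mme windows and 5 in the Anpep window. No core lay in the Dpp4 window, and the Ace windows held a core in 1 of 2 but no whole match to the motif within the window. A match of letters is a description of the sequence, and binding was not measured on these arrays.

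Anpep, the other aminopeptidase, trims neutral residues, and among its substrates is the angiotensin III that aminopeptidase A makes. Its single probe gave 1205 in 2D culture and 1449 in RTOC at E14.5, and 1059 and 1903 at E15.5. Both RTOC values exceeded both 2D values, and all 4 channels were well above background. The log2 ratios were 0.27 and 0.85, averaging 0.56 ± 0.41 (SD, n = 2 arrays), with a 95% confidence interval of -0.14 to 1.25. The difference did not pass the threshold (adjusted p = 0.185 from limma). The Enpep interval and the Anpep interval did not overlap, though the difference between the genes was not itself tested.

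Dpp4 removes dipeptides from the amino end of peptides with proline or alanine as the second residue, among them the chemokine Cxcl12. Its brightest probe gave 97.3 in 2D culture and 225.1 in RTOC at E14.5, and 128.5 and 139.0 at E15.5. The RTOC values lay above the 2D values, but the E15.5 pair lay close together. The log2 ratios were 1.21 and 0.11, averaging 0.66 ± 0.78 (SD, n = 2 arrays), with a 95% confidence interval of -0.19 to 1.52 and an adjusted p of 0.195 from limma. The second probe, which shares 20 bases with it, gave 47.8 and 69.3 at E14.5 and 44.3 and 53.4 at E15.5, with a mean log2 ratio of 0.40 and an adjusted p of 0.278. It was well above background in RTOC only, on both arrays, so its 2D level has only an upper bound, and it was not called. The third Dpp4 probe was not well above background in any channel.

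Mme, or neprilysin, cuts enkephalins, tachykinins and natriuretic peptides. Its brighter probe gave 252.4 in 2D culture and 71.1 in RTOC at E14.5, and 410.5 and 82.7 at E15.5. Both 2D values lay above both RTOC values, and the RTOC signal was well above background on 1 of the 2 arrays, E15.5, where the level was 4.97-fold lower. The E14.5 ratio of -1.83 is set against a signal not well above background and is not an exact fold. The mean log2 ratio was -2.07 ± 0.34 (SD, n = 2 arrays), which is 4.20-fold lower in RTOC with that array included, with a standard error of 0.27 and an adjusted p of 0.00552 from limma. The second probe, of unrelated sequence, gave 97.8 and 33.9 at E14.5 and 109.3 and 18.2 at E15.5, with a mean log2 ratio of -2.06 ± 0.75 and an adjusted p of 0.0105. Its RTOC signal was not well above background on either array, so it gives a level at least 1.16-fold lower in RTOC. With normexp and loess the log2 ratio of the brighter probe shrank to -0.52 (1.44-fold lower) and it was no longer called (adjusted p = 0.0757).

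Ece1, the endothelin-converting enzyme, also had less signal in RTOC. Its main probe gave 16790 in 2D culture and 7491 in RTOC at E14.5, and 27840 and 9438 at E15.5. Both 2D values lay above both RTOC values, and all 4 channels were well above background. The mean log2 ratio was -1.36 ± 0.28 (SD, n = 2 arrays), which is 2.57-fold lower in RTOC, with a standard error of 0.26, a 95% confidence interval of -2.02 to -0.70 and an adjusted p of 0.0175 from limma. The call was lost when the pairing of the channels within an array was left out of the fit (adjusted p = 0.0537), and the ratio was nearly the same with normexp and loess (-1.37). The other Ece1 probe was not well above background in any channel.

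Ace, known above all from the surface of endothelium, showed no distinguishable difference. Its brightest probe gave 210.3 in 2D culture and 166.6 in RTOC at E14.5, and 180.3 and 231.9 at E15.5. The groups overlapped, and the log2 ratio was -0.34 on one array and 0.36 on the other, averaging 0.01 ± 0.49 (SD, n = 2 arrays). The 95% confidence interval was -0.71 to 0.74 (adjusted p = 0.977 from limma), an interval that spans changes of that size in either direction. The other 2 Ace probes were not well above background in any channel.

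**Figure D3:**
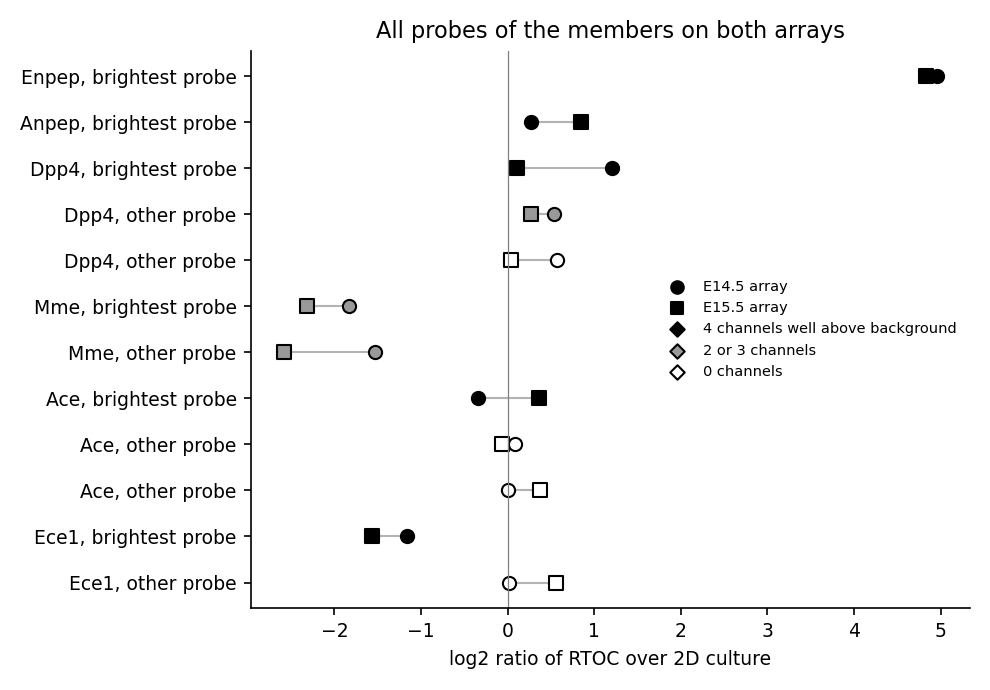
Log2 ratio of RTOC over 2D culture (x axis) of all 12 probes of the 6 genes on the E14.5 (circles) and E15.5 (squares) arrays, filled black where 4 channels were well above background, grey where 2 or 3 were and white where 0 were. Both Mme probes lie between -2.58 and -1.53, the white probes of Dpp4, Ace and Ece1 lie between -0.06 and 0.57, and the Ace symbols of the brightest probe fall on both sides of 0.

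Endothelial and mesenchymal markers are given here because Ace, Mme and Anpep are known in such cells. Of 7 endothelial markers, 6 were tested and 5 were higher in RTOC (3 with normexp and loess or median centring), with a summed intensity of 1647 in 2D culture and 6969 in RTOC at E14.5, and of 751.9 and 10600 at E15.5. Cdh5, the endothelial cadherin, rose at least 5.01-fold from a 2D signal not well above background, whereas Kdr, a receptor of vascular endothelial growth factor, had log2 ratios of 0.03 and 2.84. Of 9 mesenchymal markers, 3 were higher and 5 were lower, against 3 and 2 with normexp and loess and 4 and 3 with normexp and median centring, with a summed intensity of 441800 and 276900 at E14.5 and of 342100 and 295500 at E15.5. Col1a1, a collagen chain, had a mean log2 ratio of -2.18 and Pdgfrb, a growth factor receptor of mesenchyme, of -1.22 (not called with normexp and loess, adjusted p = 0.0529), whereas Pdgfra, its relative, had 2.84. Of 8 macrophage and myeloid markers, 5 were higher and 0 were lower (4 and 0 with normexp and median centring). Their summed intensity went from 75100 to 178900 at E14.5 and from 64110 to 228700 at E15.5. Most of these sums came from Lyz2 (58170 and 124700 at E14.5, 48250 and 169700 at E15.5), which is named for that reason. Adgre1, a surface receptor of macrophages, had a mean log2 ratio of 3.01, Cd68 of 0.61, and Csf1r had 0.91 at E14.5 and 1.28 at E15.5. Of 11 medullary epithelial markers, 9 were tested, 5 were higher and 4 were lower, against 3 and 4 with normexp and loess and 2 and 3 with normexp and median centring, with a summed intensity of 50470 and 153900 at E14.5 and of 69180 and 220100 at E15.5. Krt5 made up most of the RTOC sums (147500 at E14.5 and 213600 at E15.5), so their rise is mainly that of 1 probe. The sums do not show the 4 genes that were lower. Aire, the regulator of self-antigen expression, was at least 1.46-fold higher in RTOC, from a 2D signal not well above background, and was not called with normexp and loess (adjusted p = 0.0647), whereas Krt5 had a log2 ratio of 2.92 and Krt14 of -1.86. The part of these cells in the ratios of Mme, Ece1, Anpep and Ace was not tested.

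Other peptidases of the cell surface were higher in RTOC where they were called. Of 27 listed, 26 were on the array and 17 were tested, of which 6 were higher, 0 were lower and 11 were not called, with a median log2 ratio of 0.78. The share called higher was 35.3%, against 15.3% over all tested probes. Under normexp and loess 3 were higher. Ggt5, a gamma-glutamyl enzyme that acts on glutathione adducts such as leukotriene C4, had a mean log2 ratio of 2.93, and Fap, a prolyl peptidase of activated fibroblasts related to Dpp4, had 2.39 (adjusted p = 0.00373). Lnpep, the insulin-regulated aminopeptidase, had -0.19 (adjusted p = 0.612 from limma). Erap1, counted in this list though it trims peptides for MHC class I in the endoplasmic reticulum, had 0.49 (adjusted p = 0.255 from limma).

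Of 22 listed peptidases that act inside the cell, 21 were on the array and all 21 were tested, of which 0 were higher, 4 were lower and 17 were not called, with a median log2 ratio of -0.46. The share called lower, 19.0%, was near the 13.6% over all tested probes. Nln, or neurolysin, had a mean log2 ratio of -1.84 and its relative Thop1, thimet oligopeptidase, had -1.31 at E14.5 and -0.90 at E15.5, which lost its call under normexp and loess (adjusted p = 0.0761). Under that setting 1 gene of this list was higher and 2 were lower, and with normexp and median centring 0 were higher and 1 was lower.

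The angiotensin system, in which Enpep, Anpep and Ace act, had 8 listed genes beside these. Of 6 tested, 4 were higher in RTOC and 0 were lower, with a median log2 ratio of 2.79. The share called higher was 66.7%, against 15.3% over all tested probes. Under each of 3 other scalings 4 were higher, while the median was 0.86 with normexp and loess. Agtr2, the type 2 angiotensin receptor, had a log2 ratio of 3.48 at E15.5, and at E14.5 its 2D signal (73.3, against 1734 in RTOC) was not well above background. Agtr1a, the type 1 receptor, had a 2D signal not well above background on either array and rose at least 1.93-fold, and its other probe was too dim to be tested. Agt, the precursor angiotensinogen, was likewise dim in 2D culture on both arrays and rose at least 2.24-fold.

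**Figure D4:**
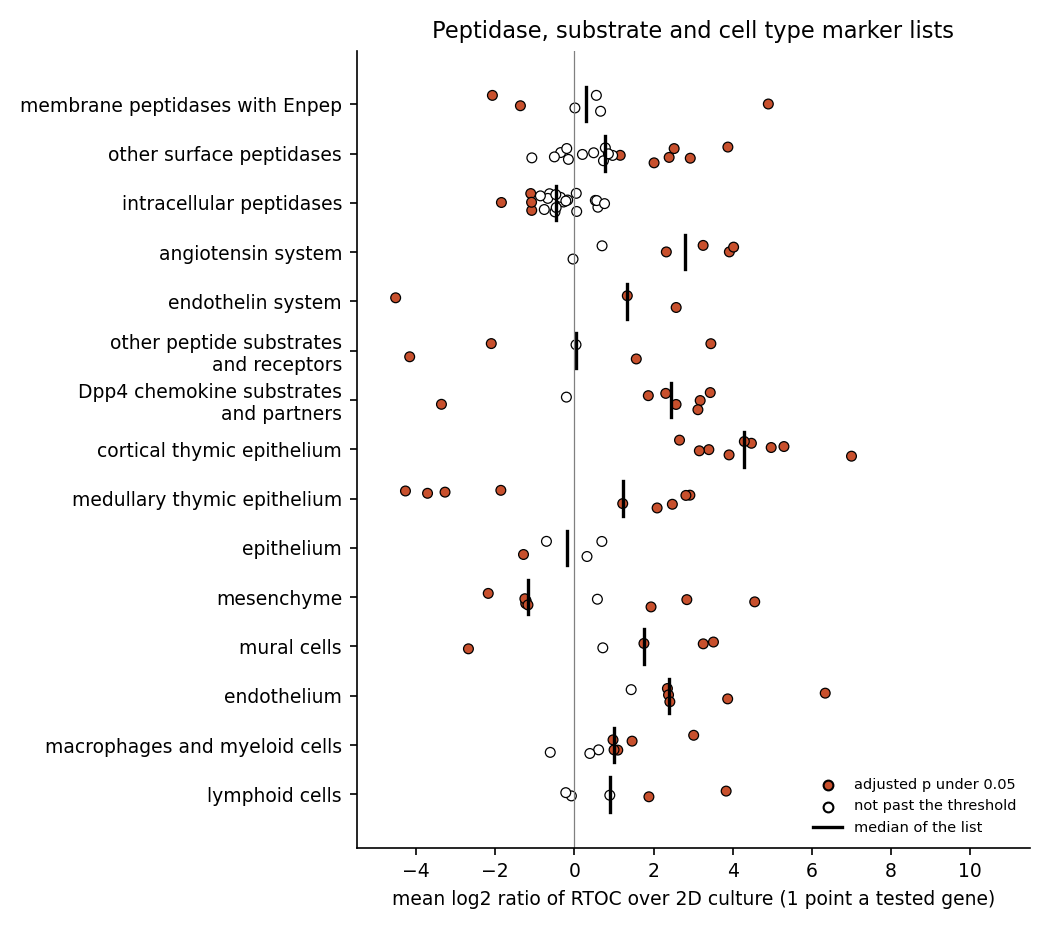
Mean log2 ratio of RTOC over 2D culture (x axis) of every tested gene (points) in the lists of peptidases, peptide substrates and receptors, and cell type markers (rows), filled where the adjusted p was under 0.05, with a bar at the median of the list. The 6 membrane peptidases are spread from -2.07 to 4.90, whereas all 9 cortical epithelial markers lie above 2.

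In the endothelin system, on which Ece1 acts, the ligand and the receptors moved in opposite directions. Edn1, the precursor of endothelin 1, gave 1730 in 2D culture and 77.4 in RTOC at E14.5, and 832.1 and 35.7 at E15.5. The RTOC signals were not well above background, so Edn1 was at least 3.07-fold lower there. Ednra, one endothelin receptor, had a mean log2 ratio of 1.34 (adjusted p = 0.0160 from limma) and Ednrb, the other, of 2.57 (adjusted p = 0.00366). Of 5 listed genes, 3 were tested, 2 were higher and 1 was lower, the same counts under 3 other scalings. The shares called were 66.7% higher and 33.3% lower, against 15.3% and 13.6% over all tested probes.

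Among 13 genes of other peptides that these enzymes cut, and of their receptors, 5 were tested. Of these, 2 were higher, 2 were lower and 1 was not called, with a median log2 ratio of 0.04. The shares called were 40% higher and 40% lower, against 15.3% and 13.6% over all tested probes. Tac1, the precursor of substance P and a substrate of neprilysin, had a log2 ratio of -4.41 at E15.5, and its receptor Tacr1 had 1.36. At E14.5 the RTOC signal of Tac1 and the 2D signal of Tacr1 were not well above background. Penk, the enkephalin precursor, had a mean log2 ratio of 3.45, and Nppb, which encodes a natriuretic peptide, had -2.10. Of these 4 only Penk stayed past the threshold under normexp and loess, where the mean log2 ratio was -1.31 for Tac1 (adjusted p = 0.0918), 0.52 for Tacr1 (adjusted p = 0.0657) and -0.58 for Nppb (adjusted p = 0.0631). Tac1 had 2 further probes, both too dim to be tested.

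Of 9 chemokine substrates and partners of Dpp4, 8 were tested. Of these, 6 were higher, 1 was lower and 1 was not called, with a median log2 ratio of 2.44. The shares called were 75% higher and 12.5% lower, against 15.3% and 13.6% over all tested probes. Under normexp and loess 2 were higher and 1 was lower. Cxcl12, which attracts lymphoid progenitors, had log2 ratios of 2.09 and 4.78 on the 2 arrays. Cxcl9, a chemokine induced by interferon, rose at least 1.35-fold from a 2D signal not well above background, with no call under normexp and loess (adjusted p = 0.118). Cav1, the caveolin that coats membrane pits, fell on both arrays, with log2 ratios of -4.15 and -2.56.

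The genes nearest to Enpep in the pair of log2 ratios were sought among 13963 others that were well above background in all 4 channels, by straight-line distance over the 2 arrays. Cd83, a surface protein of cortical epithelium and dendritic cells that is also in the cortical marker list, was nearest, at 0.143, with ratios of 4.96 and 4.98. It was followed by Snap91 at 0.250 with 4.81 and 4.63, Shisa2 at 0.263 with 4.70 and 4.82, and Grp, the precursor of gastrin-releasing peptide, at 0.266 with 5.07 and 5.08. The fifth was a probe for which no gene name was matched, at 0.269. A second Snap91 probe had a log2 ratio of 1.39. With 2 arrays, likeness of this kind rests on 2 numbers a gene.

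**Figure D5:**
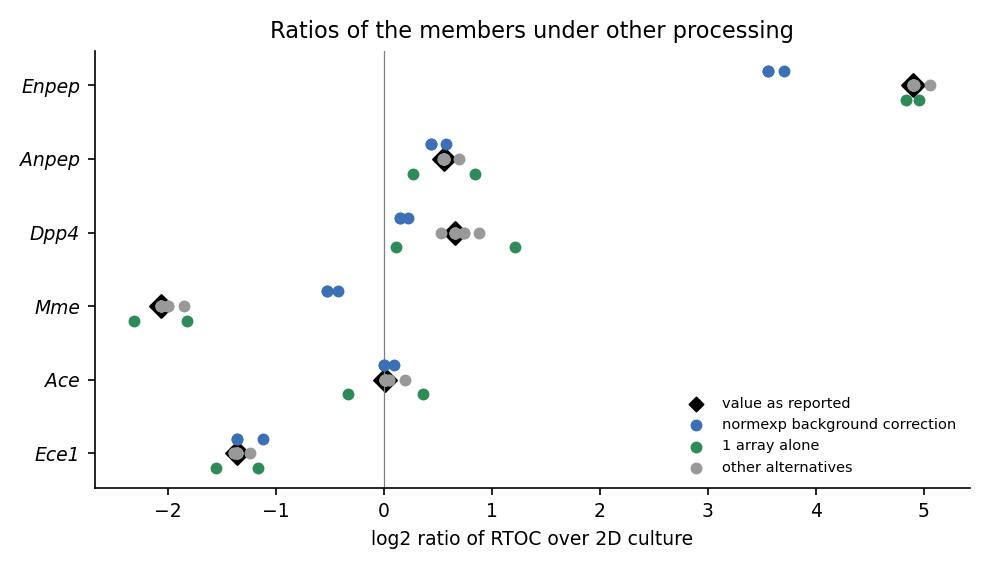
Log2 ratio of RTOC over 2D culture (x axis) of the 6 genes under each way of processing the arrays, with the value as reported (black), normexp background correction (blue), 1 array alone (green) and other alternatives (grey). Enpep stays between 3.56 and 5.06 and Ece1 between -1.56 and -1.12, Mme moves to -0.52 and -0.42 with normexp, and Ace lies on both sides of 0.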

How the data were processed

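Total RNA of thymic stromal cells in RTOC and 2D culture was measured on 2 two-colour whole mouse genome arrays, on 1 slide and in 1 scan. The authors ran Feature Extraction, version 11.5.1.1 by the submitters' processing notes and 9.1.3.1 by the file headers, and imported the data into GeneSpring GX for quantile normalization. The deposited files hold for each spot an intensity as mean signal, background and processed signal (background-subtracted and dye-normalized), flags, and a log10 ratio of Cy5 over Cy3. The deposited table of series values equals the log10 ratio of the processed signals to within 5e-10, which is before quantile normalization.

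Control spots and outlier spots (5 at E14.5, 1 at E15.5) were left out of 43379 non-control spots an array. Quantile normalization of the processed signals over 4 channels was followed by log2 of Cy5 over Cy3 and averaging over spots of a probe. A probe was well above background in a channel where at least 1 in 2 of its spots was flagged so, and it was tested where at least 1 channel was so on each array (23685 of 41174). At E14.5, 53.1% (2D culture) and 56.3% (RTOC) of probes were so, and at E15.5, 53.5% and 60.9%. The number of arrays and the signal over background limit the precision. The ratio was tested against 0, two-sided, with limma 3.58.1 in R 4.3.3 (lmFit, eBayes), a threshold of 0.05 and Benjamini-Hochberg adjustment over all tested probes. Since there is 1 residual degree of freedom, the p-values lean on the spread shared by all probes, and an exact sign-flip test of 2 arrays cannot fall under 0.5. The labels do not say whether the cultures of an array came from separate animals, so the spread may in part be technical. The steps were tested on simulated data.

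Names came from the RefSeq table of GRCm38.p6 for 22951 probes by accession, 6659 by symbol and 3109 by older symbol, and 8455 matched none. The brightest probe stood for a gene. "At least N-fold" compares normexp (offset 50), loess and Aquantile channel values with the lowest signal well above background, or the dim probe's own if higher, and is open to dye bias.

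The 6 genes and all lists were chosen with earlier results of these data known. Named from each peptidase, substrate or receptor list were at most 2 of the largest rises and falls past the threshold plus Agt, Edn1, Ednra, Ednrb, Fap, Lnpep, Erap1 and Cxcl12, and from each marker list the first 3 above background. A gene that this rule also names is not reported here. Alternatives were normexp with loess, Aquantile or median centring, median-centred processed signals, deposited log ratios, outliers kept, other filters on dim probes, eBayes with trend and robust fitting, no replicate block, the methods' t-test, each array left out and the median over probes. The series values as deposited were added after seeing the data. Upstream sequence came from RefSeq windows of GRCm38.p6. Protein sequences were not used here.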

Additional observations from a re-analysis of the deposited data

Results flagged for a closer look

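Of the genes described by their levels or ratios, 3 that were tested had log2 ratios of opposite sign on the 2 arrays, and no test of that difference was possible, since each stage has 1 array. Ace, the angiotensin-converting enzyme, was higher in 2D culture at E14.5 and higher in RTOC at E15.5, with a ratio at E15.5 that exceeded the one at E14.5 by 0.699 on the log2 scale. The aminopeptidase Lnpep went from -0.39 to 0.01, a difference of 0.401, and its other 2 probes had -0.17 and -1.60 at E14.5 and -0.52 and -0.40 at E15.5. The keratin Krt8 went from 1.06 to -0.42, a difference of -1.48, and its other probe also changed sign, from 0.42 to -0.60. Such a change of sign was seen in 19.9% of the tested probes.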

How the results depend on the processing

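Over 15 alternatives Enpep kept its direction, with log2 ratios from 3.56 to 5.06, and it was past the threshold in 10 of 12 that had a test. Anpep (0.27 to 0.85) and Dpp4 (0.11 to 1.21) were not called under any of 12 tests, with lowest adjusted p of 0.124 and 0.0700. Mme stayed negative and was past the threshold in 6 of 11, and Ece1 in 9 of 12. With no filter on dim probes, the adjusted p was 0.117 for Enpep (4.90), 0.118 for Mme (-2.07) and 0.129 for Ece1 (-1.36), and 0 of 41168 probes were called by limma, with 10661 at an unadjusted p under 0.05. With the methods' t-test the adjusted p was 0.328, 0.346 and 0.356 for the same 3 values, with 4 probes called and 3540 at an unadjusted p under 0.05. Mme came to -0.52 with normexp and loess, with or without Aquantile, which leaves a ratio within an array as it was (adjusted p = 0.0757), and to -0.42 with normexp and median centring (adjusted p = 0.147). Ace came to -0.0026 with normexp and loess, with or without Aquantile (adjusted p = 0.991), and the arrays alone gave -0.34 and 0.36. Without the replicate block, in which the channels of an array are not paired, Ece1 kept -1.36 with an adjusted p of 0.0537, and the calls of Enpep and Mme did not change. The count of called probes, 6855 as reported, was 3709 with normexp and loess (with or without Aquantile), 2907 with normexp and median centring and 4051 without the replicate block. With processed signals, median centring in place of quantile normalization gave a median of all tested probes of 0.15 and 65.1% of calls higher in RTOC, against 52.9%. After normexp, median centring in place of loess gave a median of 0.12 and 76.4% of calls higher, against 54.1%. The causes were not tested. Mme has no value where both channels of both arrays had to be well above background, since RTOC at E14.5 was not. No called gene of the peptidase, substrate or marker lists changed sign under normexp with loess or median centring or under median-centred processed signals. Dim signals limit the second probe of Mme to a bound and leave its brighter probe with 1 array measured in both cultures.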
